A study of Mus musculus with 16 samples.

Results

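Bacteria of the colon were compared between 4 wild-type (WT) mice given dextran sulfate sodium (DSS) and 4 WT mice given water. These are 8 of the 16 libraries of the study. The remaining 8 come from MERTK-/- mice, which lack a receptor that macrophages use to engulf dying cells, and they enter here through the filter, the shared error of the model, the definition of traces and a few comparisons of the response. All mice were of the C57BL/6J background, 8 to 10 weeks old and kept under specific pathogen-free conditions. The DSS mice drank 2.5% (w/v) DSS of 36 to 50 kDa in sterile water without restriction for 7 days, the water mice drank sterile water, and tissue was taken on day 8. The labels describe the sampled tissue as distal colon, cut 2 to 3 cm from the anus and rinsed with buffer. They do not describe how the 16S libraries were made. Whether the bacteria counted were those left with the rinsed tissue is therefore open. Bacteria were counted as amplicon sequence variants (ASVs), which are distinct sequences of the 16S rRNA gene. Of 1901 ASVs in the table, 1056 were tested, those with a total of 10 counts or more that were seen in 3 or more of the 16 libraries, and 184 of these had no count in any WT mouse. Summed by genus, 122 of 146 groups passed the same filter, and summed by family 57 of 72 did.

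DSS is a sulfated polysaccharide that damages the colonic epithelium and thins the mucus over it, and mice that drink it develop acute colitis. The healthy mouse colon is dominated by strict anaerobes. Muribaculaceae, Bacteroides and relatives, all Bacteroidales, break down plant and host polysaccharides, while Lachnospiraceae and other Clostridia ferment fibre and amino acids to short-chain fatty acids such as butyrate. Lactobacilli ferment simple sugars to lactate, the Erysipelotrichales of the mouse gut (Turicibacter, Faecalibaculum, Dubosiella) are fermenting Gram-positive bacteria, and Helicobacter, Mucispirillum and Akkermansia live in or on mucus.

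Every library held 96469 counts, so a count of 0 allows a share of up to 0.00311% (3 counts, counting error only). The tested ASVs held 98.8% of the counts of the DSS mice and 98.0% of those of the water mice. Shares are percent of counts. A lower share and a smaller number of that bacterium cannot be told apart, since shares sum to a whole in each library. The labels name no cage, and mice share bacteria within a cage, so cage and DSS cannot be told apart. The table names 16S variants by taxon, with 51 of no kingdom, 3 of Archaea and 2 of Eukaryota, and lists no mouse genes, so neither the tissue nor the genotype could be checked against a marker. Adjusted p-values are from edgeR's quasi-likelihood test with Benjamini-Hochberg adjustment at an FDR of 0.05. The test sets the difference between the WT groups against the spread between mice within groups. That spread was estimated over all 16 libraries, those of MERTK-/- mice included.

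DSS mice differed from water mice at every rank. At an FDR of 0.05, 15 families (26.3% of 57 tested), 39 genus-level groups (32% of 122) and 178 ASVs (16.9% of 1056) changed. Of the families 7 rose (12.3%) and 8 fell (14%), of the genera 14 rose (11.5%) and 25 fell (20.5%), and of the ASVs 83 rose (7.86%) and 95 fell (9%). The mice of the groups did not overlap for 33.3% of families (14% with DSS above water, 19.3% below), for 36.9% of genera (13.9% above, 23% below) and for 20.3% of ASVs (7.95% above, 12.3% below). At an unadjusted p under 0.05 there were 19 families, 45 genera and 355 ASVs. Leaving out any 1 of the 8 mice kept the call of 11 of the 15 families, 28 of the 39 genera and 100 of the 178 ASVs. Many calls were of bacteria seen in a single group: 7 of the 14 genera that rose had no count in any water mouse, and 14 of the 25 that fell had none in any DSS mouse.

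Among the abundant families, Erysipelotrichaceae, Bacteroidaceae and Rikenellaceae rose, Muribaculaceae fell, and the share of Lachnospiraceae did not pass the test. Erysipelotrichaceae, small Gram-positive fermenters, held 3.75%, 1.98%, 2.45% and 8.61% of counts in DSS mice 1 to 4, against 0.0529%, 0.105%, 0.148% and 0.114% in water mice 1 to 4. Every DSS mouse was far above every water mouse, and the rise was 40.0-fold (log2 fold change 5.32 ± 0.94 SE, adjusted p = 0.00046), or 25.9-fold without DSS mouse 4. Muribaculaceae, the largest family of the water mice, held 20.1%, 20.2%, 12.0% and 19.1% in DSS mice, against 26.3%, 24.3%, 30.7% and 27.2% in water mice. DSS mouse 3 was the lowest of all, the groups did not overlap, and the fall was 1.52-fold (log2 fold change -0.60 ± 0.17 SE, adjusted p = 0.00889). On centred log-ratios with 0.5 added to each count, that fall had an adjusted p of 0.0561.

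**Figure D1:**
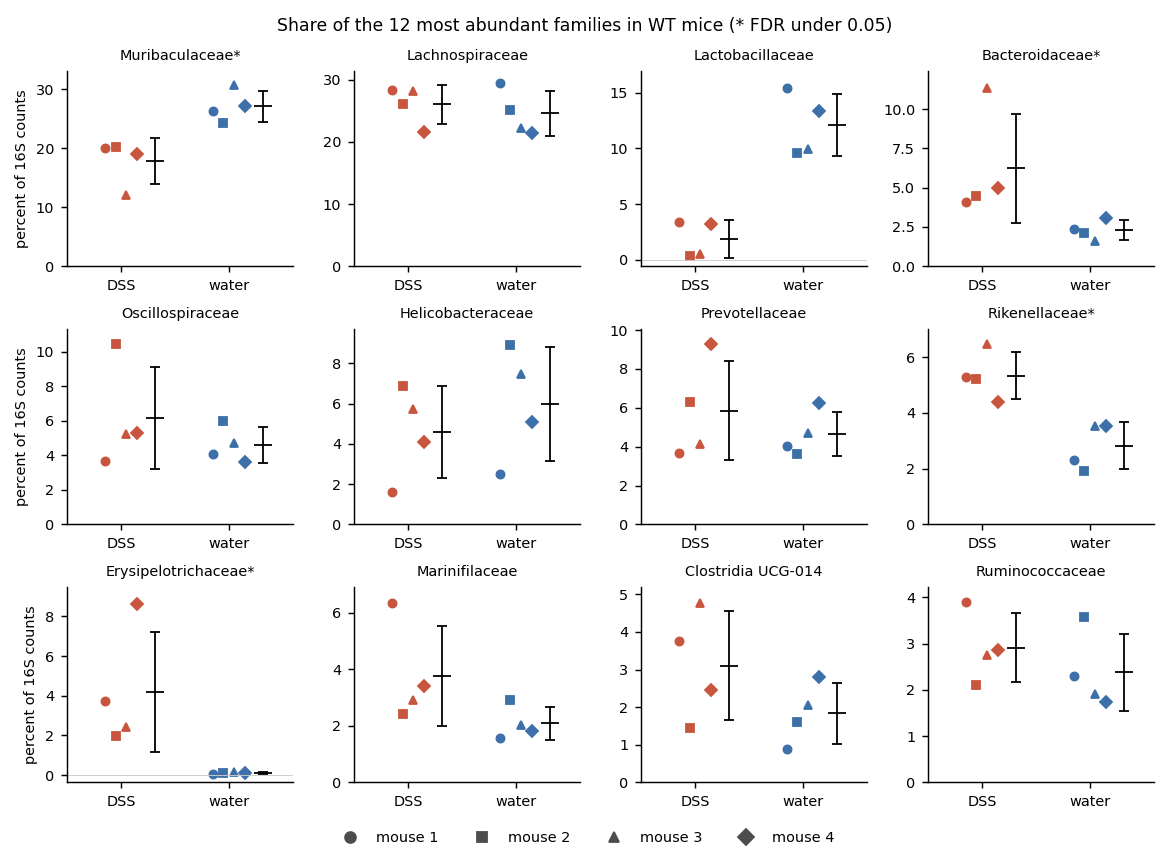
Share of counts (percent, vertical axis) of the 12 most abundant families in each WT mouse, DSS on the left and water on the right of each panel, with bars for mean ± SD (n = 4). Muribaculaceae of the DSS mice (12.0% to 20.2%) lie below all water mice (24.3% to 30.7%), Erysipelotrichaceae of the DSS mice (1.98% to 8.61%) lie above all water mice, and the 2 groups overlap for Lachnospiraceae.

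Bacteroidaceae, here a single genus of polysaccharide degraders, held 4.10%, 4.47%, 11.4% and 4.96% in DSS mice and 2.39%, 2.11%, 1.61% and 3.10% in water mice. The groups did not overlap, DSS mouse 3 stood highest, and the rise was 2.70-fold (adjusted p = 0.0111). Without DSS mouse 3 it was 1.96-fold and no longer passed (adjusted p = 0.111). Rikenellaceae held 5.28%, 5.24%, 6.46% and 4.40% in DSS mice and 2.31%, 1.90%, 3.54% and 3.55% in water mice, a rise of 1.89-fold without overlap (log2 fold change 0.92 ± 0.26 SE, adjusted p = 0.00889). With only the WT libraries in the fit the adjusted p of Rikenellaceae was 0.0741.

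Lachnospiraceae, the main family of butyrate-forming Clostridia, held 28.4%, 26.0%, 28.2% and 21.6% in DSS mice and 29.5%, 25.2%, 22.3% and 21.4% in water mice. The groups overlapped almost fully (log2 fold change 0.08 ± 0.15 SE, adjusted p = 0.663). Oscillospiraceae (6.16% ± 2.94 on DSS, 4.60% ± 1.02 on water), Helicobacteraceae (4.58% ± 2.30 and 5.99% ± 2.82), Prevotellaceae (5.85% ± 2.56 and 4.65% ± 1.14) and Ruminococcaceae (2.91% ± 0.75 and 2.38% ± 0.84; SD, n = 4 each, DSS first) did not pass the test either. Among 25 families that reached 0.5% of counts in either group, the others that passed were unclassified Rhodospirillales, which rose, and Staphylococcaceae, which fell. Clostridia vadinBB60 group, with 1.12%, 2.04%, 1.94% and 1.10% in DSS mice and 0.120%, 1.01%, 0.461% and 0.550% in water mice, did not overlap between the groups and did not pass (adjusted p = 0.150). The Rhodospirillales, an order of Alphaproteobacteria, held 1.16%, 1.38%, 1.27% and 0.169% in DSS mice, against 0.0622%, 0.120%, 0.0238% and 0.0508% in water mice. DSS mouse 4 lay far below the other DSS mice but above every water mouse, and the rise was 15.5-fold (adjusted p = 0.0117 among families). Among genera the same counts had an adjusted p of 0.0172, and of 0.0521 without water mouse 3.

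Most Erysipelotrichaceae counts of the DSS mice were of Faecalibaculum. Faecalibaculum, a lactate-forming genus described from mice, held 3.13%, 1.66%, 1.61% and 7.95% in DSS mice, while water mice 1 to 3 had no count and water mouse 4 had 0.00726%. The water mean lay under the floor of 3 counts, so no fold is given (log2 fold change 10.85 ± 2.28 SE, adjusted p = 0.00232). Turicibacter, a spore-forming genus of the small and large bowel, held 0.340%, 0.235%, 0.387% and 0.401% in DSS mice and had no count in any water mouse, which makes it at least 110-fold higher (adjusted p = 0.000102). Dubosiella, a close relative of Faecalibaculum, held 0.141%, 0.0404%, 0.361% and 0.206% in DSS mice, against 0.0104%, 0.00933%, 0.00518% and 0 in water mice, a rise of 30.1-fold (adjusted p = 0.0120). All 3 genera were higher in each DSS mouse than in any water mouse. Of the 6 tested Erysipelotrichales groups, 3 rose and 1 fell, where 11.5% rose and 20.5% fell over all 122 genera, with a median log2 fold change of 2.67, against -0.28 over all 122 genera. The group that fell was Candidatus Stoquefichus, with 0.0404%, 0, 0.0155% and 0.0767% in the water mice and no count in any DSS mouse (adjusted p = 0.0175). It was seen in 3 water mice, and without any 1 of them it was in too few libraries to be tested. Together the list held 4.24% ± 3.04 of counts in DSS mice and 0.168% ± 0.053 in water mice (SD, n = 4 each).

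**Figure D2:**
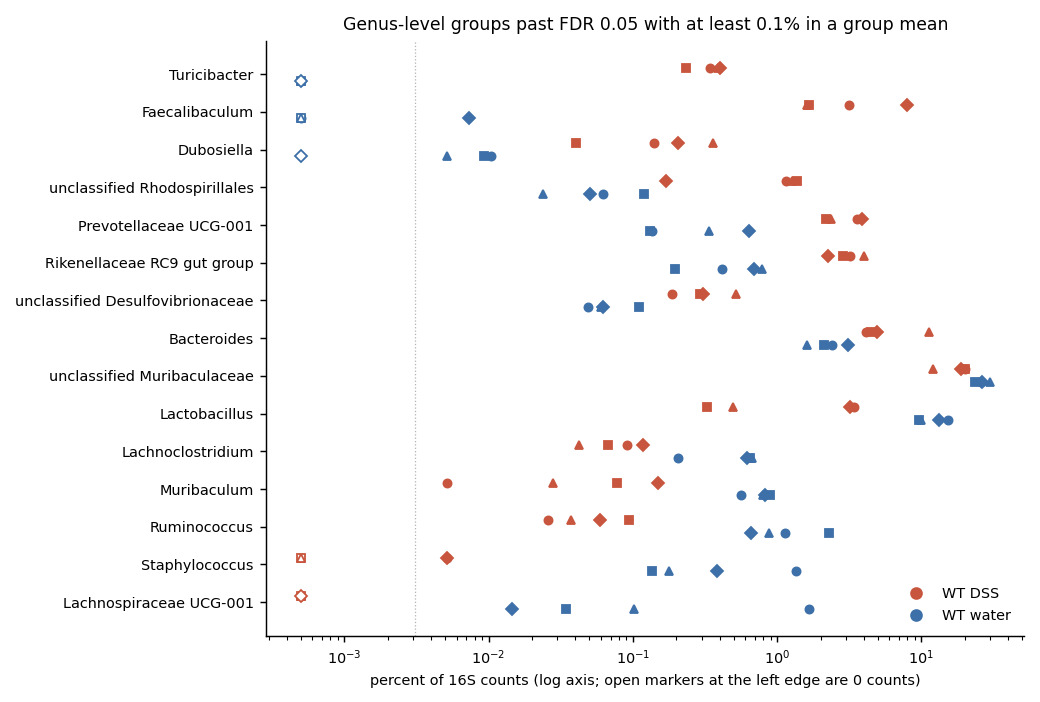
Share of counts (percent, log axis) in each WT mouse for the 15 genus-level groups past an FDR of 0.05 with at least 0.1% in a group mean, DSS mice above water mice in each line; open markers at the left edge are counts of 0 and the dotted line is the floor of 3 counts. Turicibacter has 4 open markers for water, Lachnospiraceae UCG-001 has 4 for DSS, and no line shows overlap between the groups.

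The lactobacilli moved the other way. Lactobacillus, which ferments sugars to lactate, held 3.43%, 0.325%, 0.492% and 3.21% in DSS mice, against 15.4%, 9.60%, 9.93% and 13.3% in water mice. The groups did not overlap, and within the DSS group mice 1 and 4 were several times above mice 2 and 3. The fall was 6.47-fold (log2 fold change -2.69 ± 0.95 SE, adjusted p = 0.0361). It was the most abundant genus to fall after the unclassified Muribaculaceae, but its call was sensitive: without DSS mouse 2 or 3 or any 1 water mouse the fold was 5.07 to 6.91 and the adjusted p 0.0525 to 0.108. The genus did not pass with median-ratio factors or with the replicate block (0.0669 each). Tested among families, the same counts had an adjusted p of 0.0807, and passed under TMM (0.0307), median-ratio factors (0.0488), DESeq2 (0.00722) and log-ratios (0.0114 and 0.00903). Bifidobacterium, another sugar fermenter, averaged 0.0417% ± 0.0343 in DSS mice and 0.0834% ± 0.0850 in water mice (SD, n = 4 each, adjusted p = 0.574). Of the 3 tested groups on the list of sugar fermenters, 0 rose and 1 fell, where 11.5% rose and 20.5% fell over all 122 genera (median log2 fold change -1.63, against -0.28 over all genera). Faecalibaculum, also lactate-forming, was counted with the Erysipelotrichales and not on this list. It rose to a mean of 3.59% in DSS mice, where Lactobacillus averaged 1.87%.

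The 4 most abundant variants of Lactobacillus were each lowest in DSS mice 2 and 3. ASV3, the largest, held 1.86%, 0.199%, 0.264% and 1.70% in DSS mice, against 8.33%, 5.07%, 4.70% and 7.28% in water mice, a 6.31-fold difference without overlap that did not pass the test (adjusted p = 0.0723). ASV3 did pass on centred log-ratios (0.0441 with 0.5 added, 0.0390 with 1 added) and with only the WT libraries in the fit (0.0478). ASV50, ASV53 and ASV74, chosen here after their values were seen, had ratios of water to DSS of 7.03, 5.95 and 6.64 and adjusted p-values of 0.0509, 0.0706 and 0.0709. The variants that passed, 2 of 10 tested, were smaller. ASV201 held 0.273%, 0.414%, 0.940% and 0.160% in water mice and had no count in any DSS mouse, at least 144-fold lower on DSS (adjusted p = 0.00459) and at least 90.7-fold without water mouse 3. ASV160, also chosen after its values were seen, had counts in DSS mouse 4 alone among the DSS mice (0.0270%), against 0.860%, 0.453%, 0.397% and 0.593% in water mice (adjusted p = 0.0472).

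Genera of Bacteroidales moved in both directions while their summed share overlapped between the groups. The listed polysaccharide degraders summed to 42.0%, 39.7%, 38.6% and 42.4% in DSS mice and 37.7%, 35.8%, 43.9% and 43.6% in water mice. Of 11 tested genera on that list, 3 rose and 2 fell, where 11.5% rose and 20.5% fell over all 122 genera (median log2 fold change -0.02, against -0.28 over all genera). Prevotellaceae UCG-001, a Prevotella relative, held 3.60%, 2.17%, 2.37% and 3.89% in DSS mice, against 0.135%, 0.131%, 0.337% and 0.638% in water mice. Each DSS mouse was above each water mouse, and the rise was 9.70-fold (log2 fold change 3.28 ± 0.55 SE, adjusted p = 0.000643), or 15.0-fold without water mouse 4. The Rikenellaceae RC9 gut group held 3.19%, 2.85%, 4.02% and 2.25% in DSS mice and 0.417%, 0.196%, 0.780% and 0.691% in water mice, a rise of 5.91-fold without overlap (adjusted p = 0.00172). Bacteroides rose 2.70-fold with the values of its family (adjusted p = 0.0192 among genera), and its call was lost without DSS mouse 3 (0.119) or without water mouse 3 (0.0662).

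In Muribaculaceae the fall of Muribaculum was large and that of the unclassified members was at the threshold. Muribaculum, a mouse gut genus of this family, held 0.00518%, 0.0777%, 0.0280% and 0.150% in DSS mice, against 0.565%, 0.895%, 0.793% and 0.819% in water mice. The groups were well apart, and the fall was 11.8-fold (log2 fold change -3.55 ± 0.79 SE, adjusted p = 0.00301), or 20.8-fold without DSS mouse 4, the highest of the DSS mice. Unclassified Muribaculaceae averaged 17.8% ± 3.89 in DSS mice and 26.4% ± 2.66 in water mice (SD, n = 4 each). That 1.48-fold fall passed narrowly among genera (adjusted p = 0.0481), did not pass without DSS mouse 3 or 4 or water mouse 1, 3 or 4 (0.0564 to 0.164), and did not pass under TMM scaling (0.125), median-ratio factors (0.366), DESeq2 (0.456), log-ratios (0.976 and 0.743), no filter (0.0965), WT libraries alone (0.177) or the replicate block (0.0866). On log-ratios with 0.5 added its log2 change was 0.00653, so its direction was not kept there.

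The Bacteroidales genera with large shares that did not pass the test were Alistipes, Odoribacter, Alloprevotella, Parabacteroides and the Prevotellaceae NK3B31 group. Alistipes was almost level, with 2.12% ± 0.13 in DSS mice and 2.16% ± 0.55 in water mice (SD, n = 4 each, adjusted p = 0.969), while the RC9 group of the same family rose. Prevotellaceae NK3B31 group was near 0 in 3 DSS mice (0, 0.00311% and 0.0124% in mice 1, 3 and 4) and 1.04% in DSS mouse 2, against 1.39% to 1.74% in water mice. Its groups did not overlap, but it did not pass (log2 fold change -2.60 ± 1.53 SE, adjusted p = 0.222). On centred log-ratios it passed, with an adjusted p of 0.00308 with 0.5 added. Alloprevotella had 0.0612% in DSS mouse 1 and 1.78% to 5.39% in the other DSS mice, against 2.10% to 3.86% in water mice (adjusted p = 0.954).

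Of 18 tested named genera of Lachnospiraceae, 1 rose and 6 fell, where 11.5% rose and 20.5% fell over all 122 genera (median log2 fold change -1.29, against -0.28 over all genera). Lachnoclostridium, a fermenter of sugars and amino acids, held 0.0912%, 0.0674%, 0.0425% and 0.117% in DSS mice, against 0.206%, 0.648%, 0.672% and 0.616% in water mice. The groups did not overlap, though water mouse 1 lay close to the DSS mice, and the fall was 6.73-fold (adjusted p = 0.0166; 0.0513 without DSS mouse 3). Lachnospiraceae UCG-001 had no count in any DSS mouse and 1.67%, 0.0342%, 0.103% and 0.0145% in water mice, at least 146-fold lower on DSS (adjusted p = 0.00770). Water mouse 1 carried most of that mean, and without it the bound was 16.2-fold (adjusted p = 0.0151).

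The other Lachnospiraceae genera that fell were A2, the Eubacterium xylanophilum and Eubacterium ventriosum groups and Marvinbryantia, all with no count in any DSS mouse and with group means of at most 0.0847% in water mice; these smaller groups are named after their values were seen. Anaerostipes, a butyrate former, was the genus that rose. It held 0.00622%, 0.00518%, 0.265% and 0.00518% in DSS mice and had no count in water mice. DSS mouse 3 held most of these counts, and without it the adjusted p was 0.0723 and the bound on the rise was 1.78-fold, against 22.7-fold with all mice. The Lachnospiraceae NK4A136 group, the largest named genus, held 7.43%, 20.0%, 18.6% and 5.81% in DSS mice and 7.25%, 4.66%, 6.72% and 10.2% in water mice, and did not pass (adjusted p = 0.192). DSS mice 2 and 3 lay far above all other mice, DSS mice 1 and 4 within the water range.

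In Ruminococcaceae, Oscillospiraceae and Butyricicoccaceae, 0 of 20 named genera rose and 2 fell, where 11.5% rose and 20.5% fell over all 122 genera (median log2 fold change -0.35). Ruminococcus, a genus with fibre- and starch-degrading species, held 0.0259%, 0.0943%, 0.0373% and 0.0591% in DSS mice, against 1.13%, 2.30%, 0.877% and 0.658% in water mice. The highest DSS mouse was below the lowest water mouse, and the fall was 22.9-fold (log2 fold change -4.52 ± 0.84 SE, adjusted p = 0.00109). Anaerotruncus, seen in DSS mouse 4 alone among the DSS mice (0.00415%) and at 0.0145% to 0.0332% in water mice, fell as well (adjusted p = 0.00534). The Eubacterium siraeum group held 3.21%, 1.11%, 2.13% and 1.46% in DSS mice, against 0.409%, 0.0435%, 0.0259% and 0.399% in water mice. The groups did not overlap, and the DSS mean was 1.98% and the water mean 0.220%, yet it did not pass (log2 fold change 3.17, adjusted p = 0.135). With only the WT libraries in the fit it passed (adjusted p = 0.0160). It also passed under DESeq2 (0.04985), on centred log-ratios (0.0253 with 0.5 added, 0.0182 with 1 added) and with the replicate block (0.0418). The other large genera of these families did not pass: Oscillibacter averaged 1.48% ± 0.79 in DSS mice and 0.609% ± 0.420 in water mice (adjusted p = 0.138), and Colidextribacter averaged 1.36% ± 1.16 in DSS mice and 1.36% ± 0.49 in water mice (SD, n = 4 each, adjusted p = 1). On centred log-ratios Oscillibacter passed (adjusted p = 0.0250 with 0.5 added, 0.0255 with 1 added).

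Of the 4 tested mucus dwellers, 1 rose and 1 fell, where 11.5% rose and 20.5% fell over all 122 genera. Helicobacter, a spiral bacterium of the mucus layer, held 1.61%, 6.90%, 5.75% and 4.08% in DSS mice and 2.48%, 8.90%, 7.50% and 5.08% in water mice, with wide overlap (adjusted p = 0.704). Mucispirillum, also of the mucus layer, held 0.282%, 0.901%, 0.800% and 1.33% in DSS mice and 0.0384%, 0.341%, 0.0456% and 0.639% in water mice (ratio 3.12, adjusted p = 0.133). Only DSS mouse 1 lay within the water range, and on centred log-ratios with 0.5 added the genus passed (0.00815). Akkermansia, a mucin degrader, rose to 0.0124%, 0.0301%, 0.0342% and 0.0612% in DSS mice, with no count in any water mouse (adjusted p = 0.00109). Those shares were small beside the 0.767% of MERTK-/- mice on DSS. Setting such traces to 0 left no count in either WT group, so the call could not remain. Candidatus Arthromitus, the segmented filamentous bacteria that attach to the epithelium, had no count in any DSS mouse and 0.0290%, 0.0104%, 0.0311% and 0.0104% in water mice, at least 6.50-fold lower on DSS (adjusted p = 0.00301).

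Among hydrogen sulfide formers, 1 of 3 groups rose and 0 fell, where 11.5% rose and 20.5% fell over all 122 genera. Unclassified Desulfovibrionaceae held 0.188%, 0.292%, 0.516% and 0.308% in DSS mice, against 0.0487%, 0.111%, 0.0601% and 0.0622% in water mice, a rise of 4.62-fold without overlap (adjusted p = 0.00742). Desulfovibrio itself, the larger genus, averaged 0.915% ± 0.587 in DSS mice and 1.49% ± 0.59 in water mice (SD, n = 4 each, adjusted p = 0.544), and the family as a whole did not pass (adjusted p = 0.678).

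Of 6 tested genera on a list set up as oxygen-tolerant, 0 rose and 3 fell, where 11.5% rose and 20.5% fell over all 122 genera. The list's median log2 fold change was -3.20. Parasutterella, for which tolerance of oxygen is not established here, was on the list too. It held 0.626% of counts in DSS mice, most of the list's 0.656%, and 0.331% in water mice, and did not pass. Staphylococcus, a skin and mucosal coccus, held 0.00518%, 0, 0 and 0.00518% in DSS mice, against 1.36%, 0.135%, 0.177% and 0.383% in water mice (log2 fold change -7.56 ± 1.58 SE, adjusted p = 0.00301). Corynebacterium, a skin genus of Actinobacteria, was seen in DSS mouse 3 alone among the DSS mice (0.00207%), against 0.219%, 0.0259%, 0.0456% and 0.0446% in water mice (adjusted p = 0.00441). Jeotgalicoccus, a relative of Staphylococcus, followed the same pattern at lower shares (0.0570%, 0.0114%, 0.0145% and 0.0155% in water mice, adjusted p = 0.0135). Water mouse 1 was the highest mouse for all 3 genera. As a family, Staphylococcaceae were 160-fold lower on DSS and 72.8-fold lower without water mouse 1. Escherichia-Shigella, a facultative anaerobe, averaged 0.0231% ± 0.0074 in DSS mice and 0.0174% ± 0.0224 in water mice (SD, n = 4 each, adjusted p = 0.771). The genera often found in reagents held 0.00466% of counts in DSS mice and 0.00130% in water mice, and 1 of the 4 tested, Pseudomonas, rose (0.00415%, 0.00622%, 0 and 0.00726% in DSS mice, no count in water mice, adjusted p = 0.0411). Without any 1 mouse other than DSS mouse 3 the adjusted p of Pseudomonas was 0.0541 to 0.0734.

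The calls were next followed to single sequences. The 83 ASVs that rose held 25.6%, 17.6%, 28.0% and 26.3% of counts in DSS mice, against 1.82%, 1.01%, 1.67% and 2.56% in water mice. The 95 that fell held 0.0384%, 0.131%, 0.151% and 0.0891% in DSS mice, against 18.2%, 15.2%, 14.2% and 11.2% in water mice. These shares describe the ASVs that the test picked and are no separate test. All 4 DSS mice and no water mouse carried 50 ASVs, which held 6.83% of the counts of the DSS mice. All 4 water mice and no DSS mouse carried 81 ASVs, which held 8.77% of the counts of the water mice. Only 146 of the tested ASVs were seen in all 8 mice, and they held 66.7% of counts in DSS mice and 60.0% in water mice.

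Some of the ASVs that rose were traces that were abundant in the other DSS group. For 35 of the 83, the mean share in WT DSS mice was under 5% of that in MERTK-/- DSS mice. Those 35 summed to 0.937% of counts in WT DSS mice and to 34.0% in MERTK-/- DSS mice. ASV11 of the Lachnospiraceae NK4A136 group, for example, held 0.110%, 0.0985%, 0.0985% and 0.0902% in WT DSS mice, no count in WT water mice, and a mean of 3.67% in MERTK-/- DSS mice. ASV25 of Alistipes held 0.0384%, 0.0788%, 0.0560% and 0.0466% in WT DSS mice, no count in WT water mice, and 2.04% in MERTK-/- DSS mice. When such traces were set to 0 in both DSS groups, 34 of the 83 remained called. These held 16.0% of the counts of the WT DSS mice. The 35 could not remain, since their counts in WT DSS mice became 0. The 49 lost calls held 8.34% of WT DSS counts, most of it in ASVs that were not set to 0. ASV43, for example, kept its counts and had an adjusted p of 0.0605. Among the 28 risen ASVs with at least 0.1% on DSS, 19 remained called. Of the 14 genera that rose, 12 remained, without Akkermansia and unclassified Tannerellaceae. How these traces came into the libraries was not tested.

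Within Lachnospiraceae 16 ASVs rose and 47 fell of 323 tested, where 7.86% rose and 9% fell over all 1056 ASVs; the counts that follow are to be read against the same shares. Those that rose held 3.49% of counts in DSS mice and 0.127% in water mice, and those that fell held 0.000259% in DSS mice and 5.56% in water mice, while the family's share overlapped between the groups. Most of them had no genus name: of 200 tested unclassified Lachnospiraceae, 8 rose and 32 fell. In unclassified Muribaculaceae 16 rose and 16 fell of 140 tested, in the NK4A136 group 4 rose and 8 fell of 50, in Bacteroides 6 rose and 1 fell of 20, and in Alistipes 5 rose and 2 fell of 25. In Oscillospiraceae 3 rose and 3 fell of 121 ASVs.

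**Figure D3:**
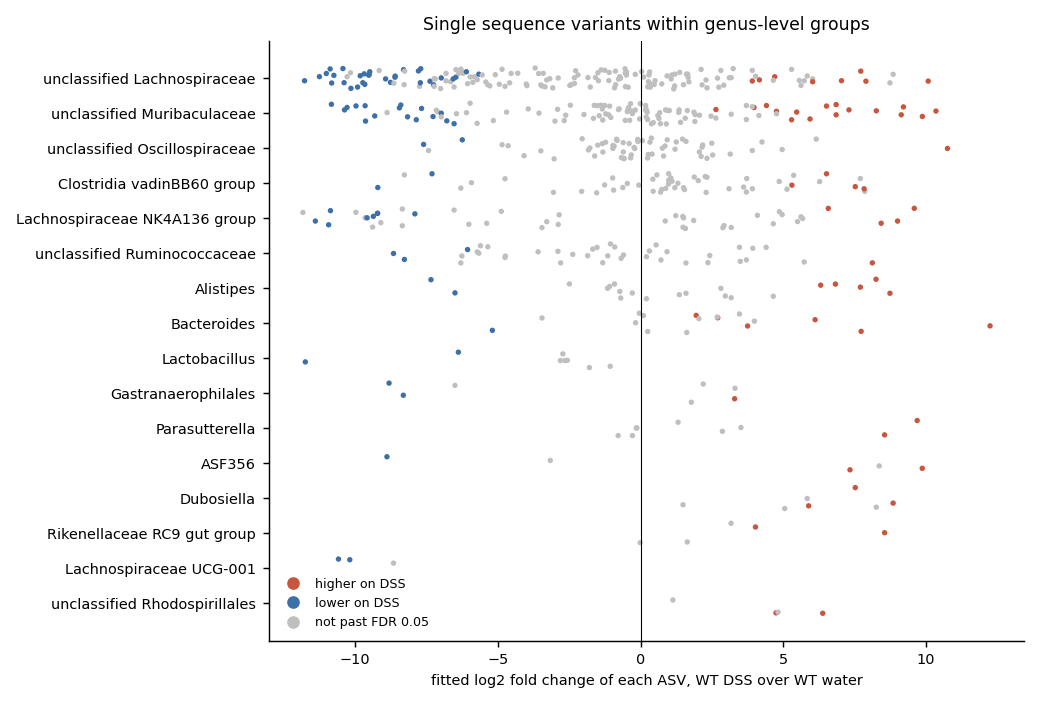
Fitted log2 fold change (horizontal axis, WT DSS over WT water) of each tested ASV that had counts in a WT mouse, in genus-level groups with several called ASVs; red points rose, blue points fell and grey points did not pass an FDR of 0.05. Unclassified Lachnospiraceae show 8 red and 32 blue points and unclassified Muribaculaceae 16 of each; the size of a fold against a group at 0 depends on the prior count of the fit.

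The variants behind these counts were often large. ASV23 of unclassified Muribaculaceae held 3.12%, 4.48%, 3.99% and 0.731% in water mice and was seen in DSS mouse 2 alone among the DSS mice (0.00622%, adjusted p = 0.00334). ASV117 of the same group held 0.788%, 0.291%, 0.316% and 0.349% in DSS mice, against 0.0249%, 0.0280%, 0.0259% and 0.0321% in water mice, a rise of 15.7-fold (adjusted p = 0.00321). For both variants the groups did not overlap. ASV35 of the same group held 0.331%, 0.0881%, 0.119% and 0.135% in DSS mice and had no count in water mice, at least 54.1-fold higher (adjusted p = 2.96e-05). The large Muribaculaceae variants ASV5 and ASV18 overlapped between the groups (3.21% and 1.74% in DSS mice, 4.45% and 2.27% in water mice, adjusted p = 0.534 and 0.710).

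In Bacteroides the variants moved in both directions. ASV7, its largest, held 1.49%, 2.07%, 4.77% and 1.81% in DSS mice, against 0.735%, 0.390%, 0.598% and 0.917% in water mice (3.84-fold, adjusted p = 0.0226; 0.0662 without DSS mouse 3). ASV151 held 0.0549%, 0.358%, 1.61% and 0.476% in DSS mice and had no count in any water mouse, at least 201-fold higher (adjusted p = 0.000237) and at least 95.2-fold without DSS mouse 3. ASV59 moved the other way, with 0.00415%, 0.00726%, 0.0135% and 0.00933% in DSS mice, against 0.209%, 0.525%, 0.352% and 0.189% in water mice (37.3-fold lower, adjusted p = 0.00123). Its groups were apart in the opposite direction to the genus. ASV57 and ASV84 were chosen after their values were seen: ASV57 rose 6.50-fold (adjusted p = 0.0301), and ASV84 was level (ratio 1.07, adjusted p = 1).

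In several genera that rose, most counts were of 1 sequence. Faecalibaculum in DSS mice was ASV16, with 3.13%, 1.66%, 1.61% and 7.95% in DSS mice and no count in any water mouse, at least 1153-fold higher (adjusted p = 0.00651) and at least 686-fold without DSS mouse 4. Turicibacter was ASV63 in the same way (adjusted p = 0.000119). In Prevotellaceae UCG-001 most counts were of ASV2, and in the RC9 gut group of ASV34, both named after their values were seen. ASV2 held 3.04%, 1.97%, 2.06% and 3.63% in DSS mice, against 0.135%, 0.131%, 0.337% and 0.638% in water mice (adjusted p = 0.00241). ASV34 held 2.25%, 1.67%, 3.13% and 1.55% in DSS mice, against 0.0871%, 0.154%, 0.229% and 0.0591% in water mice (16.2-fold, adjusted p = 0.00106). A second variant of Prevotellaceae UCG-001, ASV248, was at 0.516%, 0.141%, 0.237% and 0.210% in DSS mice and without a count in water mice (adjusted p = 0.00521). In each of these variants all DSS mice were above all water mice.

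Among the Clostridia, ASV43 of unclassified Lachnospiraceae held 1.93%, 0.599%, 2.34% and 2.28% in DSS mice, against 0.137%, 0, 0.111% and 0.0280% in water mice (25.9-fold, adjusted p = 0.0242; 0.0540 without water mouse 4 and 0.0605 with traces set to 0). ASV193, ASV123 and ASV167 of the same group had no count in any DSS mouse. ASV193 held 0.172%, 0.372%, 0.364% and 0.912% in water mice, at least 146-fold lower on DSS (adjusted p = 0.00393) and at least 97.3-fold without water mouse 4. ASV123 was at least 86.2-fold lower (adjusted p = 0.0163) and ASV167 at least 78.6-fold lower (adjusted p = 0.000823). The fall of Ruminococcus was mostly that of ASV77, absent from the DSS mice and at 0.699%, 2.12%, 0.711% and 0.568% in water mice, at least 329-fold lower on DSS (adjusted p = 0.00112) and at least 212-fold without water mouse 2. In the NK4A136 group ASV293 held 0.233%, 0.335%, 0.111% and 0.290% in water mice and had no count in DSS mice (at least 77.9-fold lower, adjusted p = 0.00543). ASV243 and ASV287 of this group had no count in DSS mice either. ASV243 (adjusted p = 0.0259) was past the threshold only while DSS mice 1 and 3 and water mouse 1 were kept (0.0503 to 0.0544 with any of those left out), and the bound on the fall of ASV287 was 81.5-fold with all mice and 21.7-fold without water mouse 3. The group's largest variant, ASV1, held 3.12%, 19.3%, 18.0% and 4.70% in DSS mice and 3.92%, 0.765%, 4.74% and 5.81% in water mice (adjusted p = 0.353), and it made up most of the group in DSS mice 2 and 3.

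Of the 10 most abundant ASVs, ASV6 of Odoribacter held 5.15%, 1.19%, 1.76% and 2.60% in DSS mice, against 0.908%, 1.14%, 0.502% and 0.753% in water mice. The groups did not overlap, and the ratio of 3.24 did not pass by library total (adjusted p = 0.146), but passed under TMM (0.0499), median-ratio factors (0.0490) and DESeq2 (0.0209). ASV4 of Helicobacter averaged 4.19% ± 2.07 in DSS mice and 5.71% ± 2.79 in water mice (SD, n = 4 each, adjusted p = 0.688). ASV8 of Alloprevotella averaged 2.33% ± 1.97 in DSS mice and 2.73% ± 0.82 in water mice (SD, n = 4 each, adjusted p = 1). Both overlapped between the groups.

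Other variants named by rule had lower shares. Of those that rose, ASV441 of Parasutterella was at 0.0280%, 0.244%, 0.0663% and 0.0881% in DSS mice and without a count in water mice (adjusted p = 0.0166). Its bound was 34.2-fold, and 19.6-fold without DSS mouse 2. ASV265 of unclassified Oscillospiraceae held 0.830% in DSS mouse 1 and at most 0.0301% in the other DSS mice, with an adjusted p of 0.0242 that was 0.0533 without mouse 1. ASV89 of unclassified Lachnospiraceae held 0.494% in DSS mouse 2 and 0.0207% in each of the other DSS mice, with an adjusted p of 0.0367 that was 0.0885 without mouse 2. Of those that fell, ASV237 of Staphylococcus held 0.858%, 0.0788%, 0.118% and 0.261% in water mice and had no count in DSS mice (adjusted p = 0.00779), at least 106-fold lower and 49.1-fold without water mouse 1. Water mouse 1 also held most counts of ASV262 of unclassified Lachnospiraceae (0.940%, 0.0176%, 0.0207% and 0.289% in water mice, adjusted p = 0.0242), whose bound was 35.1-fold without it and 102-fold with it.

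Communities of DSS mice were less even. Pielou's evenness, which is 1 when all detected ASVs are equally common, was 0.709, 0.680, 0.706 and 0.740 in DSS mice and 0.753, 0.756, 0.752 and 0.752 in water mice. Each DSS mouse was below each water mouse (difference -0.0446, p = 0.0286 by an exact two-sided permutation test, the lowest value possible with 4 mice a side). The 10 largest ASVs of each mouse held 41.8%, 47.1%, 44.0% and 37.9% of counts in DSS mice and 36.6%, 35.6%, 36.6% and 36.3% in water mice (difference 6.41 percentage points, exact permutation p = 0.0286). Water mice were close together in both measures and DSS mice were not: the SD of evenness was 0.0245 in DSS mice and 0.00216 in water mice. Without any 1 water mouse the exact permutation p of either measure was 0.0571 and the call was lost, while without any 1 DSS mouse it was 0.0286. The differences without a water mouse stayed close to those with all mice, at -0.0436 to -0.0452 for evenness and 6.18 to 6.53 points for the 10 largest ASVs. With a mouse left out there are fewer than 70 arrangements, so the p-value moves in coarser steps.

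**Figure D4:**
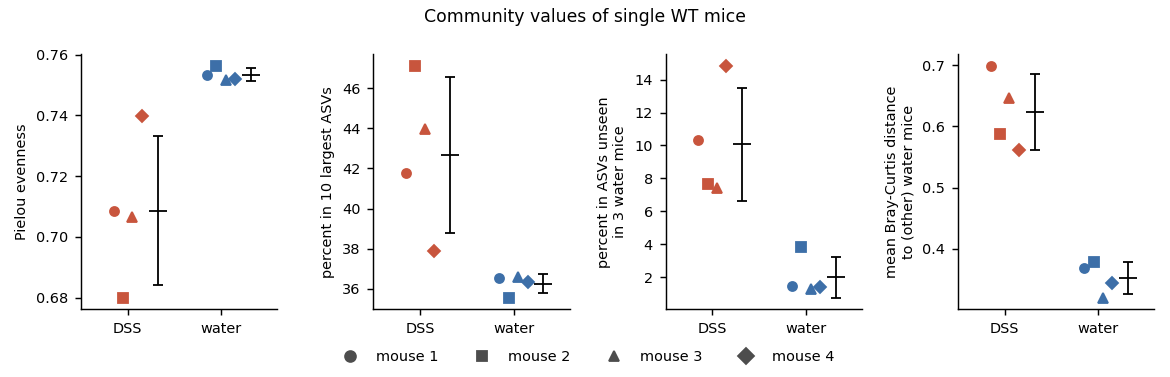
Pielou evenness, percent of counts in the 10 largest ASVs, percent of counts in ASVs unseen in 3 water mice, and mean Bray-Curtis distance to the (other) water mice for each WT mouse, DSS left and water right, with bars for mean ± SD (n = 4). Evenness of the DSS mice is at most 0.740, under every water mouse, and their distance to water mice (0.562 to 0.699) lies above that among water mice (0.320 to 0.378).

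Most counts of the DSS mice belonged to ASVs that water mice carried too. The share of counts in ASVs without a count in 3 water mice was 10.3%, 7.66%, 7.41% and 14.9% in DSS mice, averaged over each choice of 3, and 1.43%, 3.84%, 1.27% and 1.39% in water mice, each set against the other 3. Bray-Curtis distance, 0 for equal and 1 for disjoint communities, averaged 0.699, 0.587, 0.647 and 0.562 from DSS mice 1 to 4 to the water mice, against 0.368, 0.378, 0.320 and 0.344 between each water mouse and the other water mice. Among themselves the DSS mice were at 0.529, 0.455, 0.433 and 0.449. Pairs of DSS mice lay between 0.310 (mice 2 and 3) and 0.596 (mice 1 and 2), and pairs of water mice between 0.303 and 0.426.

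The number of ASVs detected per family was compared next. Lachnospiraceae had 104, 117, 82 and 162 detected ASVs in DSS mice and 180, 196, 194 and 171 in water mice, a difference of -69 without overlap (exact permutation p = 0.0286, adjusted over 12 families 0.114). Erysipelotrichaceae had 13, 10, 15 and 9 in DSS mice and 3, 5, 4 and 3 in water mice, and Bacteroidaceae had 15, 16, 16 and 18 in DSS mice and 13, 12, 11 and 13 in water mice, each with the same exact permutation p of 0.0286. Both had more detected ASVs in every DSS mouse than in any water mouse. With traces set to 0 the difference for Bacteroidaceae was 2 ASVs in place of 4 (exact permutation p = 0.0857). Muribaculaceae had 78, 84, 65 and 90 in DSS mice and 90, 98, 101 and 94 in water mice (exact permutation p = 0.0571). By the exact permutation test 0 of 12 families passed after adjustment and 3 had an unadjusted p under 0.05. Those 3 were at 0.0286, the lowest value that this test can give with 4 mice a side. With 3 of 12 families there it adjusts to 0.114, so even full separation of these 3 could not pass. DSS mouse 3 had the fewest ASVs of Lachnospiraceae, Muribaculaceae, Oscillospiraceae and Ruminococcaceae, and DSS mouse 4 the most of the DSS mice in 3 of those families.

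**Figure D5:**
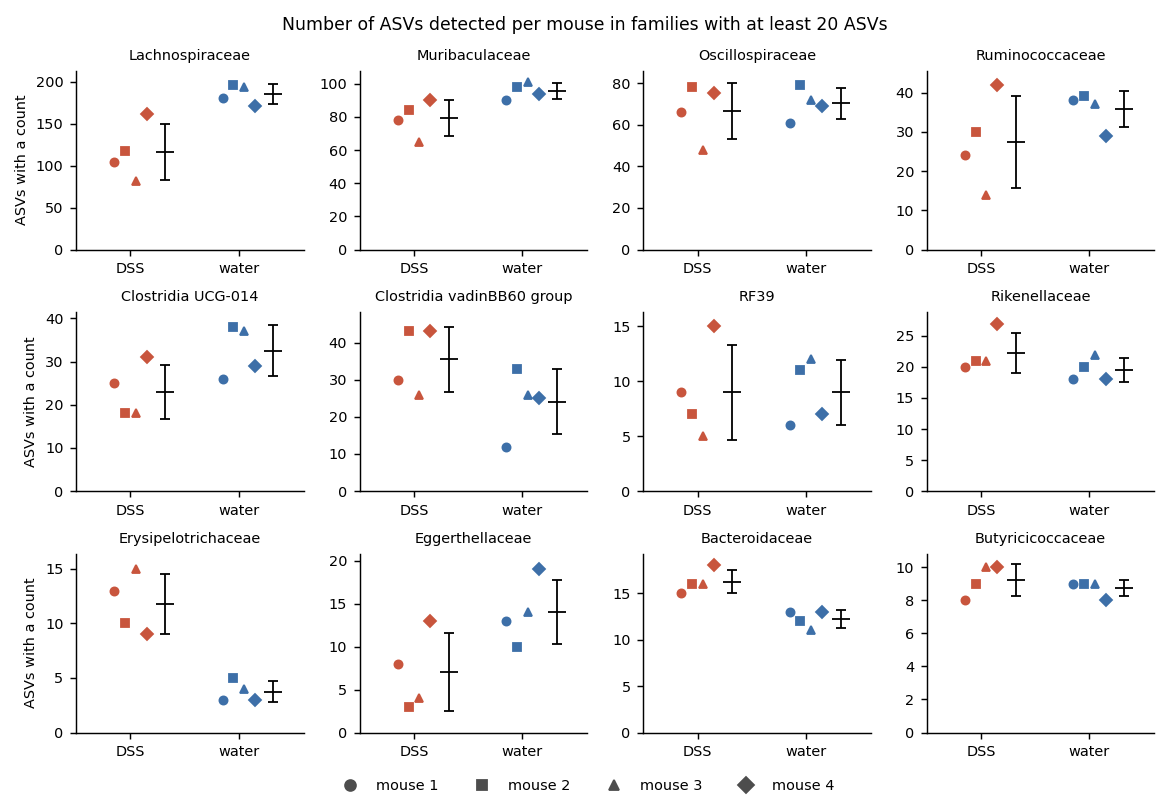
Number of ASVs with a count (vertical axis) in each WT mouse for the 12 families with at least 20 ASVs in the table, DSS left and water right, with bars for mean ± SD (n = 4). Lachnospiraceae of the DSS mice (82 to 162) lie below all water mice (171 to 196), and Erysipelotrichaceae and Bacteroidaceae lie above them.

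In several genera DSS mice 1 and 4 stood apart from DSS mice 2 and 3, which is given as a description with no test. Mice 1 and 4 had more Lactobacillus than mice 2 and 3, and so it was for unclassified Bacilli (0.388%, 0.0197%, 0.0114% and 0.365% in DSS mice 1 to 4), Enterorhabdus (0.124%, 0.0135%, 0.0228% and 0.111%) and Coriobacteriaceae UCG-002 (0.740%, 0.0695%, 0.102% and 0.598%). The NK4A136 group was the reverse. In unclassified Bacilli the water mice held 0.649%, 0.613%, 0.599% and 0.538%, in Enterorhabdus 0.258%, 0.192%, 0.336% and 0.285%, so all DSS mice were below all water mice, yet neither passed (adjusted p = 0.314 and 0.0574). Single DSS mice also carried blooms of their own: ASV9 of unclassified Lachnospiraceae held 13.8% in mouse 1 and 0.122%, 0.995% and 0.644% in mice 2 to 4, against 0.0124%, 2.28%, 0.0508% and 0 in water mice. These genera were chosen after their values were seen.

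The response of MERTK-/- mice to DSS, 4 against 4 in the same fit, differed from that of WT mice for 11 of 122 genera. The count, by the interaction term, includes 5 of the 30 genera named by rule. In Alloprevotella, Helicobacter, Faecalibaculum and Coriobacteriaceae UCG-002 (0.0163%, WT DSS mice 0.377%) the MERTK-/- DSS mean lay in the range set for traces. The WT DSS mean did so in Escherichia-Shigella (0.0231%, MERTK-/- DSS mice 0.532%) and unclassified Tannerellaceae (0.0137%, MERTK-/- DSS mice 0.492%). How far traces made these differences was not tested. Faecalibaculum averaged 0.0762% in MERTK-/- DSS mice, under 5% of the WT DSS mean of 3.59%, and 0.0137% in MERTK-/- water mice, and its log2 fold change was larger by 8.39 in WT mice (adjusted p = 0.0370). The RC9 gut group averaged 2.27% in MERTK-/- DSS mice and 3.69% in MERTK-/- water mice, a log2 fold change 3.27 above it in WT mice (adjusted p = 0.00363). Ruminococcus averaged 0.220% in MERTK-/- DSS mice and 0.321% in MERTK-/- water mice, so its fall was deeper in WT mice by 3.97 on the log2 scale (interaction -3.97, adjusted p = 0.0238). Lactobacillus averaged 2.41% in MERTK-/- DSS mice and 4.96% in MERTK-/- water mice, and its response did not differ past the test (adjusted p = 0.506). Turicibacter averaged 1.04% in MERTK-/- DSS mice and had no count in MERTK-/- water mice. It had no count in either water group, so the difference in its response could not be estimated.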

How the data were processed

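The 16S table was deposited by the authors as whole-number counts of 1901 ASVs with a taxonomy, and all 16 libraries hold 96469 counts. Per the labels' protocols, distal colon tissue was used; they describe an RNA library made with oligo(dT), so whether DNA or RNA was the template is open. For the amplified region, the ASV caller, the taxonomy source and the step that made totals equal, the tools and settings were not given in the sources used here. Counts were also summed by genus and family. Differences were tested with edgeR 4.0.16 (R 4.3.3) by the quasi-likelihood test on all 16 libraries with a mean per group and the library total as the only scaling, with Benjamini-Hochberg adjustment at an FDR of 0.05. Features needed a total of 10 counts and counts in 3 libraries. Folds are ratios of mean shares, or bounds against 3 counts per library. Alternatives used TMM, median-ratio factors, centred log-ratios in limma 3.58.1, DESeq2 1.42.0, other filters, WT libraries alone, a replicate block, traces set to 0 and each mouse left out. Traces are ASVs whose mean in a DSS group is under 5% of the other DSS group's mean. Per-mouse measures were compared by exact permutation over 70 arrangements. The fit was tested on simulated data.

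Items were named by rule: families of at least 0.5% of counts in either group, called genera of at least 0.1%, members of the role lists of at least 0.5%, the 10 most abundant ASVs, the 10 highest and 10 lowest called ASVs of at least 0.1%, and in each group with ASVs called both ways the most abundant of each. The taxa and role lists were chosen with earlier results of these data known.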

Additional observations from a re-analysis of the deposited data

Results flagged for a closer look

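A mouse stood apart from the other 3 of its group in 22 of 232 groups of 4 examined, by Dixon's criterion. Its rate of about 1 in 20 by chance holds for independent normal values. Here some counts enter at more than 1 rank and many shares are 0, so the 22 cannot be set against that rate. DSS mouse 3 was apart with 12.0% Muribaculaceae, 12.0% unclassified Muribaculaceae and 11.4% Bacteroidaceae, which is also its share of Bacteroides (11.4%). DSS mouse 1 was apart with 13.8% ASV9, 0.830% ASV265 and 0.788% ASV117. DSS mouse 2 was apart with 1.04% Prevotellaceae NK3B31 group, 0.494% ASV89, and 0.00622% each of ASV23 and ASV258. DSS mouse 4 was apart with 27 detected ASVs of Rikenellaceae.

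Water mouse 1 was apart with 0.206% Lachnoclostridium, 1.67% Lachnospiraceae UCG-001 and 0.191% ASV626. Water mouse 2 was apart with 0.446% Acholeplasmataceae, 2.28% ASV9, 2.12% ASV77 and 3.84% of counts in ASVs unseen in the other 3 water mice. Water mouse 3 was apart with 0.812% ASV287. Water mouse 4 was apart with 0.00726% Faecalibaculum and 8 detected ASVs of Butyricicoccaceae.

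The response to DSS differed between WT and MERTK-/- mice for 5 of 30 named genera by the interaction term of edgeR's quasi-likelihood test, given as the log2 fold change in WT mice minus that in MERTK-/- mice. It was -9.49 for Alloprevotella (adjusted p = 0.00161), 8.39 for Faecalibaculum (0.0370), -8.03 for Helicobacter (0.000157), 3.27 for the Rikenellaceae RC9 gut group (0.00363) and -3.97 for Ruminococcus (0.0238). Alloprevotella averaged 0.0879% in MERTK-/- DSS mice and was without a count in MERTK-/- water mice, so the size of its difference depends on the prior count of the fit. Helicobacter averaged 0.182% in MERTK-/- DSS mice and 0.000777% in MERTK-/- water mice, and Faecalibaculum 0.0762% and 0.0137%. For these 3 genera the MERTK-/- DSS mean was under 5% of the WT DSS mean (2.58%, 4.58% and 3.59%), the level set for traces, and the part of such traces in the differences was not tested.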

How the results depend on the processing

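Of 178 changed ASVs, 83 higher and 95 lower, centred log-ratios gave 319 (146 higher, 173 lower; 0.5 added) and 317 (145, 172; 1 added), a filter of counts in 6 libraries gave 116 with 43 lower, and traces set to 0 left 34 higher. Genera higher were 23 with either log-ratio, and families lower were 4 with the 6-library filter. DESeq2 called 115 ASVs higher and 73 lower, 61.2% higher against 46.6% by library total. The median log2 change of the 146 ASVs seen in all 8 mice was 0.01 by library total, 0.74 under TMM, 0.67 under median-ratio factors and 0.56 and 0.48 on log-ratios, so directions near 0 depend on the scaling. The replicate block gave 81 ASVs (43 higher, 38 lower). Same-number mice correlated at -0.08 to 0.01 over ASVs, -0.12 to 0.19 over genera and -0.03 to 0.14 over families. Mice of different numbers spanned -0.09 to 0.14, -0.19 to 0.11 and -0.17 to 0.15 in the same order. Whether the numbers mark a pairing cannot be told from these values. The largest single ASV, in place of the top 10, differed by 6.90 points (exact permutation p = 0.0857).

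Without any 1 mouse, changed ASVs were 114 to 172 (52 to 76 higher, 58 to 99 lower), genera 31 to 42 (11 to 14, 19 to 29), families 13 to 15 (6 to 7, 7 to 8), the evenness difference -0.0550 to -0.0351 and the top-10 difference 4.93 to 8.01.

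Log2 changes that turned sign, none of them called with all mice except unclassified Muribaculaceae, follow in the order TMM, median-ratio, DESeq2, log-ratio (0.5), log-ratio (1) where each applies. Under TMM Lachnospiraceae was -0.0103. Unclassified Muribaculaceae was 0.00653 on the log-ratio with 0.5. GCA-900066575 was 0.00633, 0.00633, 0.187 and 0.0847 (from median-ratio on), Colidextribacter 0.27, 0.27, 0.31 and 0.20, and Alistipes 0.24, 0.24, 0.61 and 0.51. Alloprevotella was 0.0825, 0.21 and 0.21, Helicobacter 0.17 and 0.0720 on log-ratios, ASV4 0.24, 0.18, 0.18 and 0.0566, ASV5 0.30, 0.20, 0.20 and 0.00380, ASV8 0.44, 0.35 and 0.35, and ASV18 0.37, 0.28, 0.28 and 0.0695. Detected ASVs of Rikenellaceae differed by -3.75 with traces set to 0. Without any 1 mouse the range was -0.51 to 0.0525 for GCA-900066575, -0.75 to 0.26 for Colidextribacter, -0.15 to 0.0906 for Alistipes, -0.74 to 0.32 for Alloprevotella, -0.81 to 0.18 for ASV8 and -7.25 to 2.75 for ASVs detected in Oscillospiraceae. The cause was not tested. Equal library totals limit rare ASVs: under 3 counts, 0.00311%, absence cannot be told from rarity.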
